A study of Mus musculus with 8 samples.

Results

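The 7 genes described here are the mouse core-binding factor and ETO genes: Runx1, Runx2 and Runx3, their partner Cbfb, and the ETO genes Runx1t1, Cbfa2t2 and Cbfa2t3. They were chosen by family name, with earlier results of these data known, and are 7 of the 47311 genes that the deposited transcripts could be assigned to. All 7 passed the filter on low counts. RNA came from LSK cells of 8 mice, a sorted marrow fraction without lineage markers and with Sca1 and Kit on its surface that holds blood stem cells and multipotent progenitors. The 4 groups were young Asxl2 WT, young Asxl2 KO, old Asxl2 WT and old Asxl2 KO, and each had 2 mice. The young were aged 8 to 12 weeks and the old more than 1 year. Each group had 1 mouse in batch 1 and 1 in batch 2, and each of the 4 litters gave a KO mouse and its WT littermate, which shared age and batch. How the Asxl2 allele was made, and in which cells it was lost, is not given in the sources used here. The study's title places Asxl2 beside leukemia with the t(8;21) translocation, which fuses RUNX1 to RUNX1T1, and the comparisons below show how the normal mouse genes of that fusion and their relatives stood with and without Asxl2.

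Runx proteins bind DNA through the Runt domain and recognise a short motif, TGTGGT, or ACCACA when read on the other strand. Cbfb does not bind DNA itself. It pairs with any Runx protein, strengthens its hold on DNA and shields it from degradation, and Runx1 with Cbfb is required for blood stem cells to arise in the embryo. The ETO proteins are corepressors without sequence-specific DNA binding that bring Sin3 and histone deacetylases to factors such as the E proteins, and Cbfa2t3 works in the Tal1, Gata and Ldb1 complex of stem and erythroid cells.

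Library totals ran from 45737972 to 80388500 estimated counts. Asxl2 itself measured 4.63 to 5.63 TPM (transcript abundance scaled for length and depth) in the 4 KO libraries and 23.0 to 30.8 TPM in the 4 WT libraries, a log2 change of -2.10 ± 0.18 (SE; adjusted p = 0.000408, edgeR quasi-likelihood test). Of the genes behind the gate, Kit ran from 63.4 to 547 TPM, Ly6a (Sca1) from 150 to 661 and Cd34 from 476 to 1050. The Kit value of 547 TPM belonged to young WT replicate 1, and the next highest was 219 TPM. Xist RNA was at 3.33 and 3.61 TPM in the 2 libraries of litter 1, old KO replicate 1 and old WT replicate 1, and at or below 0.0612 TPM in the other 6. Calls over both ages or both genotypes are therefore also given without that litter for the Runx, Cbfb and ETO genes. The same is done for genes named from the lists of partners, targets and genes mutated with the fusion. Calls of Asxl2 and of the cell and gate marker lists, apart from Kit and Flt3, are given only with that litter included. Markers of other cells were present: erythroid markers summed to 99.7 to 623 TPM in KO and 290 to 1320 TPM in WT, and 8 megakaryocyte markers to 128 to 199 TPM in KO and 101 to 192 TPM in WT. Mast cell and basophil markers summed to 44.0 to 200 TPM in KO and 76.5 to 333 TPM in WT, and neutrophil markers to 9.50 to 1580 TPM over all libraries. The T and NK list summed to 9.55 to 28.3 TPM and the osteoblast and stroma list to 9.36 to 37.0 TPM. Cd3e, Sp7, Bglap, Cdh5, Flt4 and Stab2 were under 0.5 TPM in every library. In bulk RNA, fewer cells of a type and less RNA per cell cannot be told apart.

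Cbfb was the most abundant of the 7 genes in all 8 libraries, at 162 ± 38.3 TPM (SD, n = 8). Runx1 followed at 46.4 ± 7.74 TPM, Cbfa2t3 at 43.5 ± 16.1, Runx2 at 33.3 ± 7.44, Cbfa2t2 at 24.8 ± 7.53, Runx3 at 21.6 ± 6.32 and Runx1t1 at 1.68 ± 1.61 TPM. Cbfb exceeded Runx1 in 8 of 8 libraries, and Runx3 exceeded Runx1t1 in 8 of 8. Between those ends the order was loose. Runx1 exceeded Cbfa2t3 in 6 of 8 libraries, Cbfa2t3 exceeded Runx2 in 6, Runx2 exceeded Cbfa2t2 in 6 and Cbfa2t2 exceeded Runx3 in 5, so these neighbours did not differ beyond their spread. The Cbfb level was above 94.2% of 21702 protein-coding genes and that of Runx1 above 80.2%. Runx1t1 was above 46.7%.

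**Figure D1:**
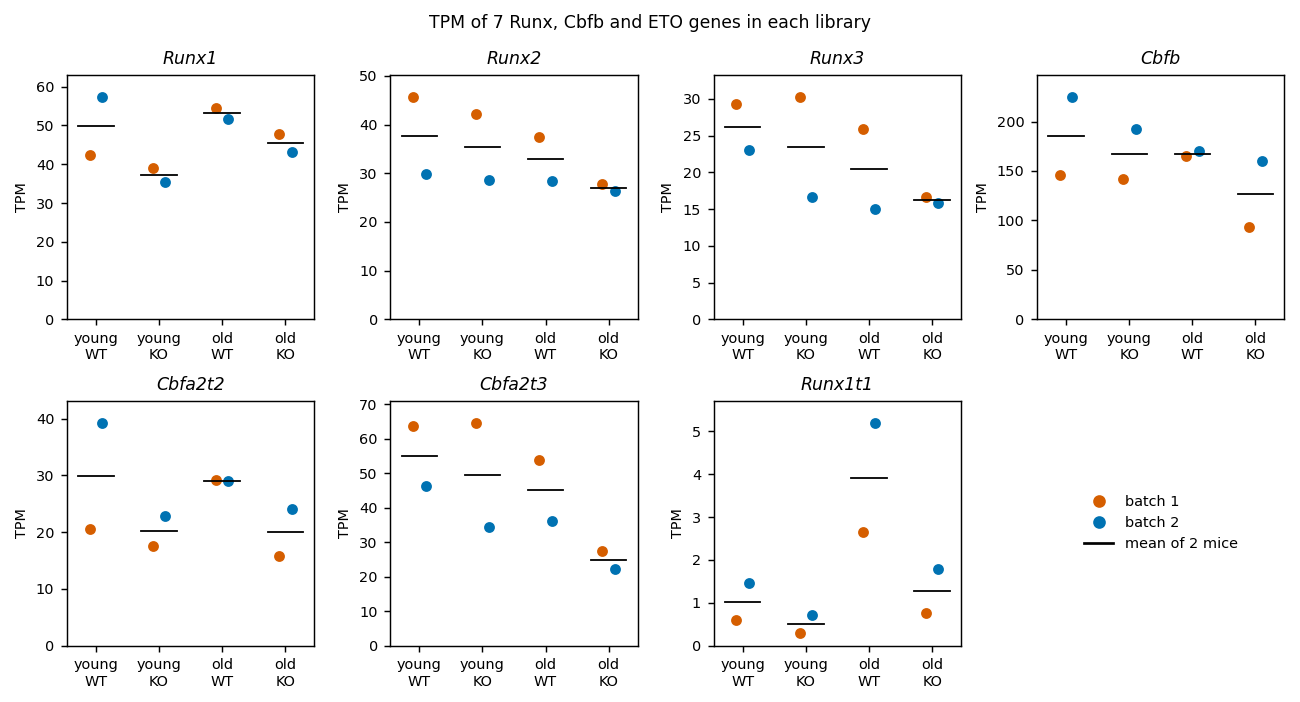
TPM of each of the 7 genes (vertical axis, starting at 0) in the 8 libraries, by group; points are single mice coloured by batch and lines are the mean of 2 mice. Runx1t1 is highest in the 2 old WT libraries (2.64 and 5.19 TPM), and Runx2, Runx3 and Cbfa2t3 are higher in batch 1 than in batch 2 within each pair of mice.

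Runx1, the family member most used by blood stem cells, measured 47.8 and 43.1 TPM in old KO replicates 1 and 2, 35.4 and 39.1 TPM in young KO, 54.6 and 51.8 TPM in old WT, and 57.4 and 42.4 TPM in young WT. KO was below WT in 4 of 4 litters, but the ranges of the 4 KO and 4 WT libraries overlapped. The means were 41.4 ± 5.34 TPM in KO and 51.5 ± 6.50 TPM in WT (SD, n = 4 each). In the count model the log2 change with KO was -0.34 ± 0.16 (SE; edgeR adjusted p = 0.184), and with age -0.07 ± 0.16 (edgeR adjusted p = 0.755). Neither passed. In batch 2 alone the KO change was -0.61 with an edgeR adjusted p of 0.0258, against -0.15 and 0.971 in batch 1 alone.

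Runx2, best known as the master factor of bone, measured 27.7 and 26.3 TPM in old KO, 28.6 and 42.1 in young KO, 37.4 and 28.4 in old WT, and 29.8 and 45.7 TPM in young WT. Runx3, a factor of T and NK cell development, measured 16.7 and 15.9 TPM in old KO, 16.6 and 30.3 in young KO, 25.9 and 15 in old WT, and 23.1 and 29.3 TPM in young WT. For both genes the high libraries were young KO replicate 2, young WT replicate 2 and old WT replicate 1, all of batch 1. The remaining batch 1 library, old KO replicate 1, was low for both. Mean Runx2 was 38.3 ± 7.79 TPM in batch 1 and 28.3 ± 1.46 TPM in batch 2 (SD, n = 4 each). Mean Runx3 was 25.5 ± 6.18 and 17.7 ± 3.67 TPM. With KO, Runx2 changed by -0.09 ± 0.14 (edgeR adjusted p = 0.715) and Runx3 by -0.08 ± 0.14 (0.744) on the log2 scale. With age the values were -0.36 ± 0.14 for Runx2 (edgeR adjusted p = 0.0943) and -0.43 ± 0.14 for Runx3 (0.0606). None of these 4 values passed. Runx3 with age did pass in 2 of 19 alternatives, DESeq2 (adjusted p = 0.0257) and edgeR without the low-count filter (0.0398). Runx1 made up 35.1% to 54.4% of the summed TPM of the 3 Runx genes, Runx2 27.0% to 39.0% and Runx3 15.8% to 27.2%.

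Each Runx gene has an upstream and a downstream promoter, and the proteins made from them differ at their first residues. Annotated transcripts were therefore grouped by start, with starts over 10 kb apart taken as separate groups. That rule was set after values had been seen. Reads shared by overlapping transcripts are divided between them by estimation, so these shares are estimates. For Runx1 (ENSMUSG00000022952, mm10 chromosome 16, 92601466 to 92826149, minus strand) the groups began at 92826149 and 92697328. For Runx3 (ENSMUSG00000070691, mm10 chromosome 4, 135120652 to 135177990, plus strand) they began at 135120652 and 135152496. The 175 bases from 250 to 76 before the RefSeq start of each, from RefSeq on GRCm38.p6, are given because the share of RNA from each promoter is the quantity compared. In GENCODE the Runx1 upstream window overlaps no gene, the Runx3 upstream window overlaps an exon of the predicted gene Gm16225, and both downstream windows lie in introns of their own gene. Capitals mark Runx motifs.
Runx1 upstream, chr16:92826150-92826324, minus strand: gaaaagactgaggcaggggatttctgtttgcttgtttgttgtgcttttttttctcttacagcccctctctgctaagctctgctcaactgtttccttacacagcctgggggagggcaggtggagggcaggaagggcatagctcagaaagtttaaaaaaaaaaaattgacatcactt
Runx1 downstream, chr16:92697405-92697579, minus strand: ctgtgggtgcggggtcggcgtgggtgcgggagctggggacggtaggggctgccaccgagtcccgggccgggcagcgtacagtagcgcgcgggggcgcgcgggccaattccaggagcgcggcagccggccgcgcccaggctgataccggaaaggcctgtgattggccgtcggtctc
Runx3 upstream, chr4:135120395-135120569, plus strand: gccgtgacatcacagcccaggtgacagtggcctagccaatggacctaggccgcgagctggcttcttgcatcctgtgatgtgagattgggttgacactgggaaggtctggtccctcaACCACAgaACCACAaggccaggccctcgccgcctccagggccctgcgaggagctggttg
Runx3 downstream, chr4:135152295-135152469, plus strand: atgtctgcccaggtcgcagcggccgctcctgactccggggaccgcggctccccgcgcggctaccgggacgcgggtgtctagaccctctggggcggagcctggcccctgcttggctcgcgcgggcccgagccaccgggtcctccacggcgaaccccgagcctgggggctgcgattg

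The downstream windows were rich in G and C, at 74.9% for Runx1 with 23 CG pairs and 76.0% for Runx3 with 22. The upstream windows held 45.1% G and C with 0 CG pairs in Runx1 and 62.3% with 6 in Runx3. The median of 32851 promoter windows of that length was 51.4% with 3 CG pairs. On both strands, the Runx motif TGTGGT matched 2 times in the Runx3 upstream window, with first bases 134 and 126 before the start, and 0 times in the other 3. It was present in 10.1% of all windows. The GATA motif AGATAA, present in 7.54% of windows, and the E-box CAGCTG, in 8.93%, were in none of the 4. The ETS motif AGGAAG matched 1 time, in the Runx1 upstream window, and was in 21.0% of all windows. No 2 of these motifs overlapped. A match is a description of letters and does not show binding.

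The upstream promoter group held 46.2% to 82.4% of Runx1 TPM. It was 53.2% and 56.5% in old KO replicates 1 and 2, 59.4% and 52.6% in young KO, 46.6% and 62.4% in old WT, and 82.4% and 46.2% in young WT. The highest share was that of young WT replicate 1. Mean shares were 55.4% ± 3.15 in KO and 59.4% ± 17.1 in WT (SD, n = 4 each; two-sided exact permutation p = 0.829, adjusted 0.829 over 22 share tests). This group includes Runx1-204, of 336 bases, at 7.79 to 15.5 TPM from only 27.7 to 86.0 counts, so its TPM share rests partly on few counts. In estimated counts in place of TPM the mean shares were 63.8% ± 5.77 in KO and 69.5% ± 12.5 in WT (exact permutation p = 0.543, adjusted 0.664). For Runx3 the downstream group held 34.3%, 36.6% and 35.8% in old WT replicate 1, young KO replicate 2 and young WT replicate 2. It held 21.9% in old KO replicate 1 and 12.5% to 17.2% in the 4 batch 2 libraries. So the 3 libraries with the highest Runx3 level also had the largest downstream share, while KO and WT differed little in the upstream share (78.3% ± 10.7 and 74.5% ± 11.1, exact permutation p = 0.714, adjusted 0.748). For Runx2 (ENSMUSG00000039153, mm10 chromosome 17, 44495987 to 44814797, minus strand) the downstream group, from 44736648, held 76.9% to 97.3%. Its upstream group held 17.4% ± 5.14 in KO and 9.83% ± 4.80 in WT (exact permutation p = 0.0857, adjusted 0.393), and was higher in KO in 4 of 4 litters, by 1.84 to 10.5 percentage points. With littermates kept as pairs, a test added after the values were seen, the exact p was 0.125, the smallest that 4 pairs can give. With 4 libraries on each side the smallest two-sided p is 0.0286, and no share test in the 22 passed after adjustment.

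**Figure D2:**
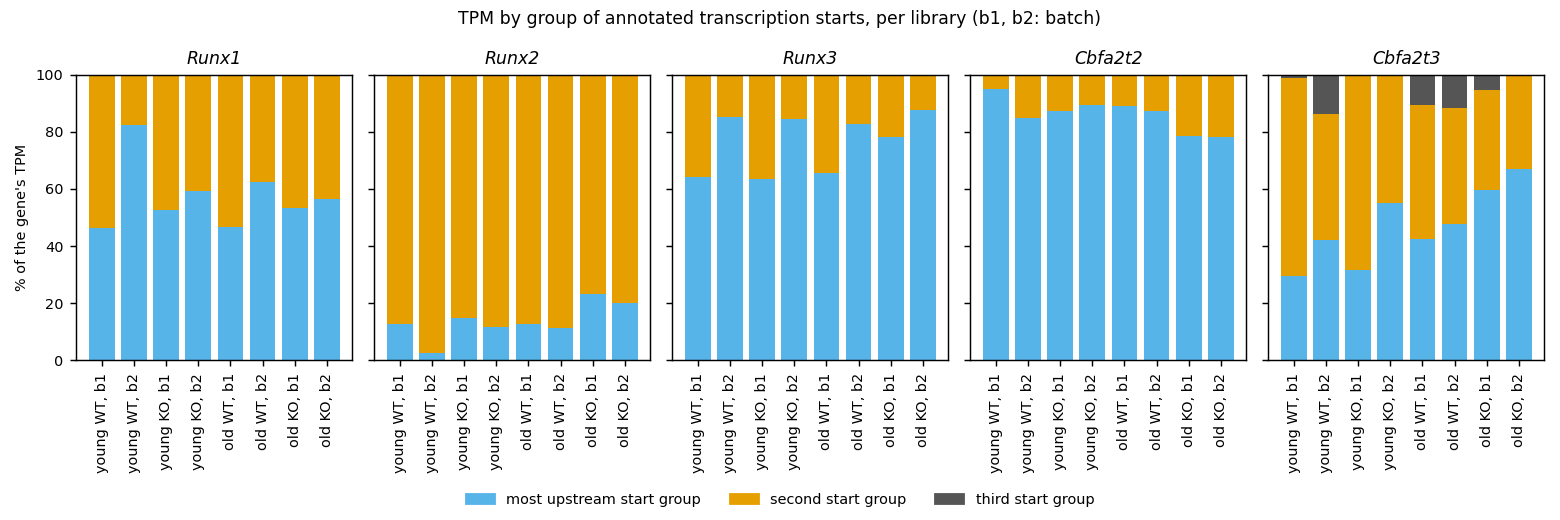
Share of a gene's TPM (vertical axis, percent) in each group of annotated starts, stacked, for each library; b1 and b2 give the batch. The Runx3 downstream share is largest in old WT, young KO and young WT of batch 1 (34.3% to 36.6%), and the Runx1 upstream share is largest in young WT of batch 2 (82.4%).

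Cbfb (ENSMUSG00000031885, mm10 chromosome 8, 105170674 to 105217989, plus strand) measured 93.8 and 160 TPM in old KO replicates 1 and 2, 192 and 142 in young KO, 165 and 170 in old WT, and 225 and 146 TPM in young WT. The lowest was old KO replicate 1 and the highest young WT replicate 1. KO was below WT in 4 of 4 litters, with overlapping ranges. The log2 change was -0.15 ± 0.11 with KO (edgeR adjusted p = 0.414) and -0.32 ± 0.11 with age (0.0746). Cbfb TPM was 1.02 to 2.38 times the sum of the 3 Runx genes, with a median of 1.59.

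Among the ETO genes, Cbfa2t2 was called lower with KO and with age and Cbfa2t3 was called lower with age. No Runx gene nor Cbfb passed in either comparison of the edgeR count model. These calls come from the count model over all 8 libraries, and most of the alternative settings tried end them. Over both ages, 1 of the 7 genes was called between KO and WT, against 9.98% of 25543 genes (6.78% called lower). Between old and young over both genotypes, 2 were called, against 13.9% of genes (9.61% lower). Calls were that frequent among all genes, so 1 or 2 calls do not set the 7 apart. All 7 log2 changes with KO were below 0, with a median of -0.22 where the median of all genes was 0.10. With age 6 of 7 were below 0, with a median of -0.36 against 0.15 for all genes. Genes at 5 TPM or more and near a member in length had lower medians than all genes, at -0.33 to -0.43 with KO and -0.40 to -0.50 with age. The medians of the 7 were not lower than those. Within one age or genotype the edgeR test called 0 of the 7. The background was 0.65% for KO against WT in old mice, 0.0626% in young mice, 0.0861% for age in WT mice, 0.0861% for age in KO mice and 0.00391% for the genotype by age interaction. At an unadjusted p under 0.05 the counts were 2, 2, 2, 3 and 0. DESeq2 called 0 in these comparisons except age in KO mice, where it called Cbfa2t2 and Cbfa2t3. On log2(TPM + 1), limma called 0 except Cbfa2t3 in KO against WT in old mice.

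Cbfa2t2 (Mtgr1; ENSMUSG00000038533, mm10 chromosome 2, 154436481 to 154539356, plus strand) measured 15.8 and 24.1 TPM in old KO replicates 1 and 2, and 22.9 and 17.6 TPM in young KO. In WT it measured 29.1 and 29.0 TPM in old mice and 39.2 and 20.6 TPM in young mice. KO was below WT in 4 of 4 litters, by 0.22 to 0.88 on the log2 scale of TPM, although young WT replicate 2 lay within the KO range. The means were 20.1 ± 4.0 TPM in KO and 29.5 ± 7.62 TPM in WT (SD, n = 4 each). In the count model Cbfa2t2 fell by 0.59 ± 0.16 on the log2 scale with KO (edgeR adjusted p = 0.0388). The values were -0.63 ± 0.24 in old mice (edgeR adjusted p = 0.166) and -0.55 ± 0.24 in young mice (0.518). With litter as a block the value was -0.58 with an edgeR adjusted p of 0.0648. The call was also lost without any one of 6 libraries: the adjusted p was 0.139 without old KO replicate 1, 0.139 without old KO replicate 2, 0.131 without young KO replicate 1, 0.157 without old WT replicate 1, 0.0956 without old WT replicate 2 and 0.112 without young WT replicate 1. Without litter 1 the change was -0.47 (0.237), with upper-quartile scaling -0.38 (0.0915) and with no batch term -0.60 (0.0778). Within batches the edgeR value was -0.47 (adjusted p = 0.857) in batch 1 and -0.79 (0.00751) in batch 2.

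With age, Cbfa2t2 fell by 0.62 ± 0.16 in counts (edgeR adjusted p = 0.032). On the log2(TPM + 1) scale the age value was -0.01 (limma adjusted p = 0.98), and the mean TPM was 24.5 ± 6.24 in old and 25.1 ± 9.65 in young mice (SD, n = 4 each). That limma fit differs from the count model in test, scaling and filter as well as in length. The age call was also lost in counts with upper-quartile scaling (-0.31, edgeR adjusted p = 0.123), a filter of 1 CPM in 4 libraries (-0.41, 0.0731) and no batch term (-0.63, 0.0586). It was lost without old KO replicate 1 (edgeR adjusted p = 0.132), old KO replicate 2 (0.133), young KO replicate 2 (0.139), old WT replicate 1 (0.0653) or young WT replicate 1 (0.101), and without litter 1, where the change was -0.69 (0.39), no smaller than over all libraries. Within batches the value was -0.48 (edgeR adjusted p = 0.336) in batch 1 and -0.75 (0.0324) in batch 2. The upstream start group held 78.0% to 95.1% of its TPM. That share was 83.2% ± 5.87 in KO and 89.0% ± 4.43 in WT (exact permutation p = 0.229, adjusted 0.435).

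Cbfa2t3 (Eto2; ENSMUSG00000006362, mm10 chromosome 8, 122625141 to 122699109, minus strand) measured 27.5 and 22.1 TPM in old KO replicates 1 and 2, 34.3 and 64.5 in young KO, 53.8 and 36.2 in old WT, and 46.2 and 63.6 TPM in young WT. The 2 old KO libraries were the lowest of the 8. The 4 old and 4 young libraries overlapped, since old WT replicate 1 lay above 2 young libraries. Mean TPM was 34.9 ± 13.9 in old and 52.1 ± 14.6 in young mice (SD, n = 4 each). Cbfa2t3 fell by 0.67 ± 0.16 on the log2 scale with age (edgeR adjusted p = 0.0273). The value was -0.87 ± 0.22 in KO mice (edgeR adjusted p = 0.111) and -0.47 ± 0.22 in WT mice (0.366). The genotype by age interaction was not called. With KO over both ages the change was -0.22 ± 0.15 (edgeR adjusted p = 0.371), and KO was below WT in 3 of 4 litters. The age call was lost without old KO replicate 1 (0.138), old KO replicate 2 (0.107), young KO replicate 2 (0.115), old WT replicate 1 (0.0871) or young WT replicate 1 (0.0558), all edgeR adjusted p, and without litter 1 (-0.33, 0.561). It was also lost with upper-quartile scaling (-0.37, 0.0821) and with no batch term (-0.73, 0.106). Within batches it was -0.94 (edgeR adjusted p = 0.0282) in batch 1 and -0.41 (0.286) in batch 2.

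The level of Cbfa2t3 split by promoter as well. Transcripts from the upstream start, at 122699109, stayed between 14.8 and 22.9 TPM in all 8 libraries. Transcripts from the second start group, at 122678694 and below, ran from 7.30 to 44.1 TPM. That group measured 9.69 and 7.30 TPM in old KO replicates 1 and 2, 15.4 and 44.1 in young KO, 25.3 and 14.7 in old WT, and 20.3 and 44.0 TPM in young WT. The 2 highest were the young libraries of batch 1, where it made 68.3% and 69.3% of the gene's TPM. Its share was 38.9% ± 6.21 in old and 56.6% ± 14.1 in young mice (exact permutation p = 0.0857, adjusted 0.393). Runx2, Runx3 and Cbfa2t3 also varied together: Pearson's r of log2(TPM + 1) over the 8 libraries was 0.92 for Runx2 with Runx3 and 0.91 for each of them with Cbfa2t3. Those points share batch, depth and library, and the values are descriptions. Cbfb with Cbfa2t2 gave 0.85 and Runx1 with Cbfa2t3 gave 0.045.

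Runx1t1 (ETO; ENSMUSG00000006586, mm10 chromosome 4, 13743436 to 13893649, plus strand), the fusion partner in t(8;21) leukemia, was the lowest and most variable gene, with a 17.0-fold span. It measured 0.763 and 1.78 TPM in old KO replicates 1 and 2, 0.725 and 0.306 in young KO, 2.64 and 5.19 in old WT, and 1.45 and 0.59 TPM in young WT. KO was below WT in 4 of 4 litters, by 0.95 to 1.79 on the log2 scale of TPM, with overlapping ranges. The log2 change was -1.05 ± 0.31 with KO (edgeR adjusted p = 0.0529) and 0.92 ± 0.31 with age (0.0631). Neither passed. The KO value was -1.06 ± 0.47 in old mice (edgeR adjusted p = 0.224) and -1.05 ± 0.47 in young mice (0.521). DESeq2 gave an adjusted p of 0.00525 for KO and 0.0153 for age. The edgeR fit without the low-count filter gave 0.0221 for KO.

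By transcript, the difference between KO and WT in Runx1t1 was uneven. Runx1t1-202, which starts at 13784782, was listed at 0 estimated counts in all 4 KO libraries. In WT it had 42 and 188 counts in old replicates 1 and 2 and 113 and 36 in young, so the groups did not overlap. How many of all transcripts separate in this way was not counted, and this one is named because of its values. Runx1t1-203, which starts at 13771377, was also at 0 in the 4 KO libraries, with 79 and 159 counts in old WT and 7 and 0 in young WT. Runx1t1-204 went the other way, with 0.393, 0.334, 0.269 and 0.165 TPM in old KO replicates 1 and 2 and young KO replicates 1 and 2, and 0.131 TPM in old WT replicate 1 and 0 in the other 3 WT libraries. The group of most upstream starts (Runx1t1-201, 204 and 206) held 205, 104, 123 and 51 counts in those KO libraries and 169, 81, 72 and 117 in WT, which overlapped. Runx1t1-205, a short processed transcript of 405 bases, had only 0 to 8 counts but made 0% to 72.3% of the gene's TPM, so Runx1t1 TPM rests partly on very few counts. Runx1t1-202 made 0% of the gene's TPM in KO and 35.9% ± 25 in WT (SD, n = 4 each). The exact permutation p was 0.0286, the smallest this design can give, and 0.393 after adjustment. A count of 0 allows up to 3 counts, and division of shared reads between overlapping transcripts can also list one at 0.

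**Figure D3:**
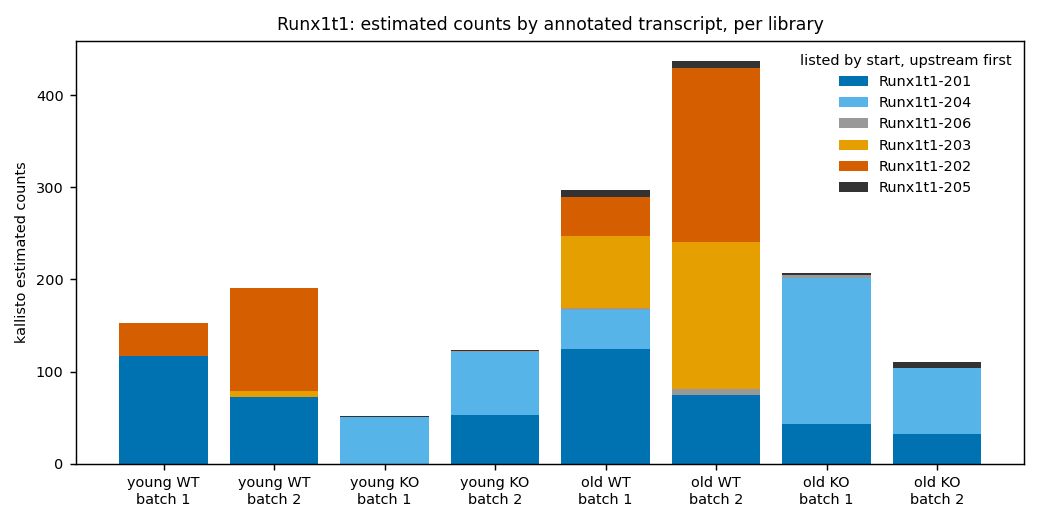
Estimated counts of Runx1t1 (vertical axis) in each library, stacked by annotated transcript from the most upstream start to the most downstream. Runx1t1-202 and Runx1t1-203 are at 0 in the 4 KO libraries, and Runx1t1-202 has 36 to 188 counts in the 4 WT libraries.

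Within the ETO family, Cbfa2t3 held 46.1% to 78.2% of the summed TPM, Cbfa2t2 21.4% to 50.2% and Runx1t1 0.371% to 7.37%. Markers of other cells moved with the same contrasts. The erythroid and mast cell sums given above were lower in KO in 4 of 4 litters, although the ranges of KO and WT overlapped. The edgeR test called 9 of 11 erythroid genes (median -1.94) and 5 of 8 mast cell genes (median -1.21) lower with KO and 0 higher. With litter as a block 4 and 5 were called. The endothelium sum was 41.8 to 71.2 TPM in KO and 72.9 to 95.5 TPM in WT, which did not overlap, with 1 of 7 tested genes higher and 2 lower. The megakaryocyte sum was lower in KO in 1 of 4 litters. With age, 7 of 11 erythroid genes were called lower (median -1.54), and 1 with length correction. The megakaryocyte sum was 168 to 199 TPM in old and 101 to 159 TPM in young mice, which did not overlap. Of its 8 genes, 0 were called with age. The T and NK sum was 17.3 to 28.3 TPM in old and 9.55 to 17.1 TPM in young mice. Those ranges only just failed to overlap, and within that list Trac was called higher and Cd4 lower. How many of all genes separate in this way was not counted, so the separations here and for endothelium are descriptions. Of 9 gate and lineage markers, 3 rose with KO (Cd48, Ly6a and Slamf1) and 3 fell (Flt3, Kit and Mecom), with a median of -0.40. Ly6a was at 0.90 ± 0.22 (edgeR adjusted p = 0.0321) and Slamf1 at 0.84 ± 0.22 (0.0393), against -0.85 ± 0.21 for Mecom (0.0334). With length correction 2 of the 9 were called higher with KO and 0 lower. The part of these markers in the Cbfa2t2, Cbfa2t3 and Runx1t1 values was not tested.

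Fold changes in counts ran with transcript length across all genes. Spearman's rho between effective length and log2 change was -0.63 for KO and -0.65 for age over 9831 genes, given as a description because genes are not independent. The effective lengths of the 7 genes were 2347 to 3131 bases. Genes compared by length were those at 5 TPM or more, above the mean of 1.68 TPM of Runx1t1, whose effective length ran from 1681 to 4621 bases. Those within 10% of the length of a member had a median log2 change of -0.33 to -0.43 with KO and -0.40 to -0.50 with age. Beside those medians the KO values of Runx2 (-0.09), Runx3 (-0.08), Cbfb (-0.15) and Cbfa2t3 (-0.22) stood higher, Runx1 (-0.34) stood close, and Cbfa2t2 (-0.59) and Runx1t1 (-1.05) stood lower. Beside the age medians, Runx1 (-0.07), Cbfb (-0.32) and Runx1t1 (0.92) stood higher and Runx2 (-0.36) and Runx3 (-0.43) stood close. Cbfa2t2 (-0.62) and Cbfa2t3 (-0.67) stood lower. Cbfa2t2 was still within the quartiles of genes near its length (lower quartile -0.63), and Cbfa2t3 was below its own (-0.57). With a length correction fitted in each library, no member was called in either comparison. Cbfa2t2 was then at -0.20 with KO (edgeR adjusted p = 0.222) and -0.18 with age (0.244), and Cbfa2t3 at -0.26 with age (0.158). The corrected KO values of Runx1, Runx2, Runx3, Cbfb and Cbfa2t3 were above 0, from 0.04 to 0.32, so the direction of these 5 small changes depends on that step. Cbfa2t2 and Runx1t1 stayed below 0 with KO in all 20 alternatives tried.

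**Figure D4:**
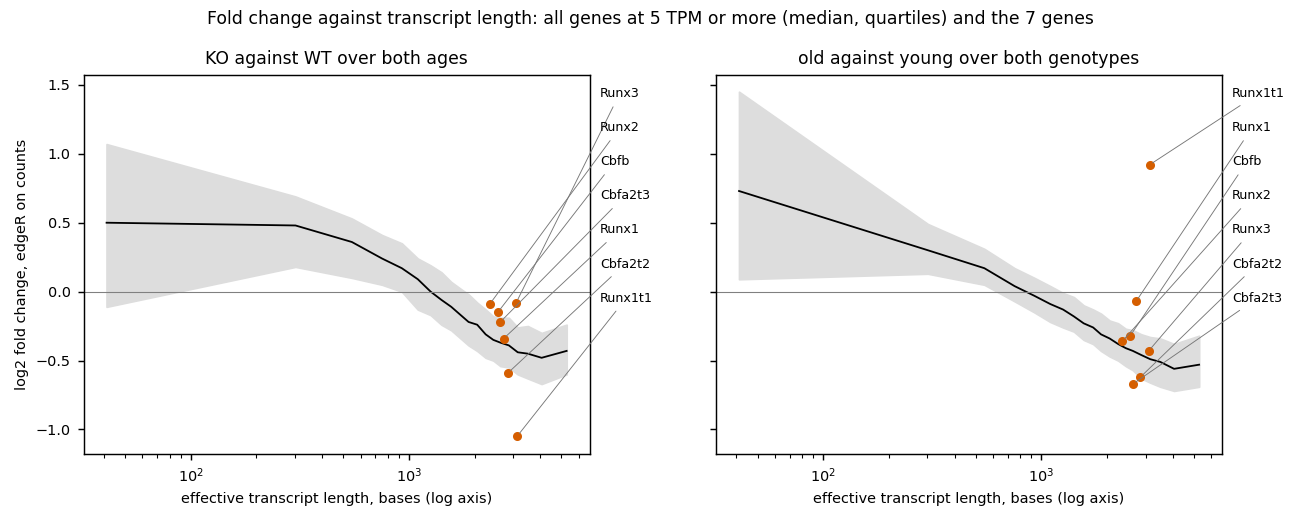
Log2 fold change in counts (vertical axis) against effective transcript length in bases (log axis) for KO against WT (left) and old against young (right); the line and band are the median and quartiles of all genes at 5 TPM or more in 20 bins of length, and points are the 7 genes. Runx1t1, at -1.05 and 0.92, lies outside the band in both panels, but its mean of 1.68 TPM is below the level of the genes that form the band. Its plotted length is a mean over libraries that ran from 1681 to 4621 bases.

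**Figure D5:**
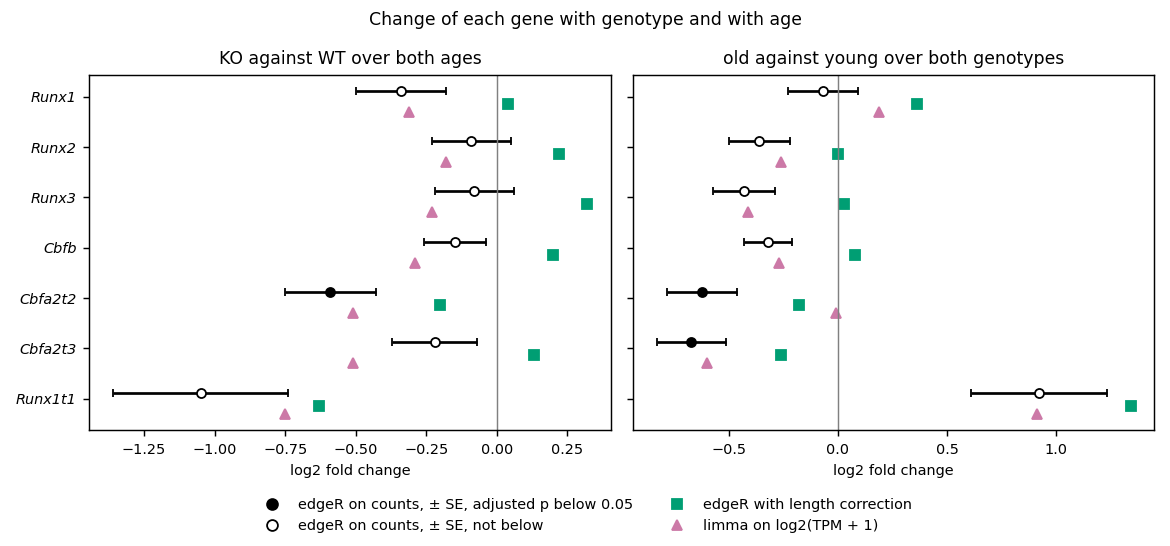
Log2 fold change (horizontal axis) of each gene with KO (left) and age (right): circles are the edgeR count model with its standard error, filled where the adjusted p was below 0.05; squares are the same model with length correction and triangles limma on log2(TPM + 1). The squares lie to the right of the circles for each gene, and for 5 genes they cross 0 with KO.

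Partners and targets of the 2 families were read from lists chosen with earlier results of these data known, so the counts are not independent evidence. They stand beside 9.98% of all genes called with KO and 13.9% with age. Of 14 corepressor partners of ETO proteins, 0 rose and 1 fell with KO, with a median of -0.26 (0.09 with length correction). The gene was Tle4, a Groucho corepressor, which fell by 0.80 ± 0.17 (edgeR adjusted p = 0.0247). With age 0 rose and 4 fell (median -0.45, or -0.07 with length correction, where 0 were called): Tle4 (-0.76), Sin3a (-0.62), Kdm1a (-0.55) and Tbl1x (-0.45). Sin3a is the scaffold of a complex that ETO proteins bind, Kdm1a is a histone demethylase and Tbl1x is a subunit of a histone deacetylase complex. Of 11 genes of the E proteins and the Tal1 and Ldb1 complex, 0 rose and 1 fell with KO (median -0.18, corrected -0.01): Gata2, a stem cell factor, at -0.61 ± 0.17 (edgeR adjusted p = 0.0427). With age 0 rose and 1 fell (median -0.24, corrected -0.04), the E protein gene Tcf3 at -0.68 ± 0.11 (edgeR adjusted p = 0.0159).

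Of 12 Runx coactivators and modifying enzymes, 1 rose and 0 fell with KO (median -0.26, corrected 0.03). That was Cdk6, a cyclin-dependent kinase that binds Runx1, at 0.69 ± 0.15 (edgeR adjusted p = 0.0251). With age 2 rose and 2 fell (median -0.35, corrected 0.02). Wwtr1 (Taz) rose by 3.58 ± 0.40 (edgeR adjusted p = 0.0029), from 0.0937 to 0.423 TPM in young mice to 1.55 to 3.15 TPM in old mice, and Cdk6 by 0.55. Carm1, an arginine methyltransferase, was at -0.56 and the kinase gene Hipk2 at -0.49. Of 23 direct targets of Runx1 in blood, 21 were tested. With KO 1 rose and 2 fell (median -0.06, corrected 0.26): the cell cycle inhibitor Cdkn1a at 0.91, the repressor Gfi1 at -0.99 and the kinase gene Prkcq at -0.66. With age 1 rose and 4 fell (median -0.22, corrected 0.12), with Cdkn1a at 1.32, Gfi1 at -0.78, the integrin gene Itgal at -0.77 and the lymphoid factor Ikzf1 at -0.71 named. Gfi1 measured 15.6 to 43.4 TPM in KO and 50.9 to 75.4 TPM in WT, which did not overlap. The share of all genes that separate in that way was not counted.

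Of 16 genes mutated together with the RUNX1-RUNX1T1 fusion in leukemia, 0 rose and 3 fell with KO (median -0.21). These were the receptor genes Kit at -0.88 and Flt3 at -0.66, and Jak2 at -0.81. With length correction 3 others, Ezh2, Smc1a and Smc3, were called higher and 0 lower, with a median of 0.12; these 3 are named because of their values. With age 0 rose and 4 fell (median -0.30, corrected 0.00): Flt3 at -1.0, Kit at -0.93, the cohesin gene Rad21 at -0.73 and Jak2 at -0.67. Kit and Flt3 are also on the list of gate and lineage markers. With length correction, 3 of the 9 KO calls named from these lists held (Cdk6, Gfi1 and Tle4) and 2 of the 17 age calls (Flt3 and Wwtr1). Leaving out 1 library kept 0 to 9 of the KO calls. The KO count was 0 without old KO replicate 1, 1 without old KO replicate 2, 3 without young KO replicate 1, 1 without old WT replicate 1, 0 without old WT replicate 2 and 4 without young WT replicate 1. With litter as a block 5 of the 9 held. Without litter 1, 0 of the 9 KO calls and 1 of the 17 age calls (Wwtr1) held. In batch 1 alone 0 of the 9 KO calls held, and in batch 2 alone 9. Leaving out 1 library kept 2 to 17 of the age calls. The age count was 2 without old KO replicate 1 or young KO replicate 2. It was 3 without old KO replicate 2 or old WT replicate 1, and 5 without young WT replicate 1.

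The genes whose levels were most like each member were searched among 9827 protein-coding genes at 5 TPM or more, by Pearson's r of log2(TPM + 1) over the 8 libraries. For Runx1 they were Dennd6a (0.929), Senp6 (0.926) and Adgrl2 (0.915). For Runx2 they were 1700047I17Rik2 (0.983), Rtf2 (0.98) and Bckdha (0.976), and for Runx3 Ttll12 (0.986), Fbxl18 (0.98) and Rnf10 (0.98). For Cbfb they were Cox15 (0.994), Depdc1a (0.99) and Nop14 (0.99), and for Cbfa2t2 Ankhd1 (0.993), Dnajc13 (0.99) and 5730455P16Rik (0.984). For Cbfa2t3 they were Dtx2 (0.988), Zyx (0.984) and Fuz (0.984), and for Runx1t1 Klrb1c (0.948), Znrd1as (0.94) and Meiob (0.937). Likeness was common for some members: 862 genes reached an r of 0.9 with Cbfb and 467 with Cbfa2t2, against 4 with Runx1 and 12 with Runx1t1. Over 8 libraries that also share batch and depth, these are descriptions.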

How the data were processed

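PolyA RNA of sorted LSK cells from 8 mice was made into libraries with the SMART-Seq v4 kit, per the labels' protocols. The submitters' processing notes name kallisto, mm10 and DESeq2 without versions. The deposited tables hold, per transcript, kallisto's estimated counts, TPM and effective length in bases (another column of other units), per the file headers. Whether strand was used in counting is not given in the sources used here, and exons of Runx1, Runx2 and Cbfa2t3 each overlap 1 gene on the opposite strand.

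Transcripts were matched by identifier to GENCODE vM21. Of 115088, 888 were unmatched (0.259% to 0.47% of counts) and left out. Both measures were added up per gene, and the summed counts rounded. edgeR 4.0.16 in R 4.3.3 fitted TMM-scaled counts of 25543 genes kept by filterByExpr (minimum count 10, total 15), with quasi-likelihood F tests and Benjamini-Hochberg adjustment over all of them at 0.05. Genotype and age effects over all mice came from an additive model with batch, which left 4 residual degrees of freedom. Effects within 1 age or genotype and the interaction came from 4 groups and batch (3 residual degrees of freedom). Limma 3.58.1 and DESeq2 1.42.0 were alternatives. Adding 1 or 0.1 to TPM before log2 understates changes of low genes. Shares of TPM were tested by exact permutation of 8 libraries (70 splits). The additive model was tested on simulated data for KO against WT, with 50 genes changed at each size. Simulated counts were independent, with 1 dispersion (0.134) for all genes and no batch, litter, age or length effect. The model called 2 of 50 at 1.5-fold, 6 at 2-fold, 48 at 4-fold and 50 at 8-fold, with 2 false calls. A gene that did not pass is therefore not shown to be unchanged. Because the real counts ran with transcript length, the simulation cannot give the number of false calls among them.

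The labels give the litters, so KO and WT littermates are paired. Deviations of littermates from their group means correlated at 0.18 in old and 0.36 in young mice over 11029 genes. Within each age the litters also differed in batch, so this correlation cannot tell litter from batch. Members other than Runx1t1 had at least 1639 counts in each library. In those summed counts, counting error is small beside the spread between mice. The TPM of Runx1 and Cbfa2t2 rests partly on short transcripts with fewer counts. Runx1-204, of 336 bases, made 7.79 to 15.5 TPM from 27.7 to 86.0 counts. Cbfa2t2-209, of 576 bases, made 3.98 to 13.5 TPM from 63.6 to 185 counts. Counting error weighs more for Runx1t1, with 52 to 437 counts, and most for Runx1t1-205, with 0 to 8.

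The members and lists were chosen with earlier results of these data known, and 2 list genes are not reported here and were left out of the lists. Genes named from the lists are up to 4 per list with the largest change past the threshold and at least 2 TPM in the higher group, and for likeness 3 per member. The 10 marker lists covered LSK gate, neutrophil, erythroid, megakaryocyte, B cell (81.9 to 106 TPM summed), T and NK cell, macrophage (35.0 to 148 TPM), mast cell, stroma and endothelium (41.8 to 95.5 TPM). Promoter sequences were taken from RefSeq, which matched 6 of the 7 genes.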

Additional observations from a re-analysis of the deposited data

Results flagged for a closer look

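Of 28 groups of 4 libraries tested (each of the 7 genes in KO, WT, old and young mice), 4 had 1 library far from the other 3 by Dixon's test, which chance flags in about 1 of 20 groups. Among KO libraries, young KO replicate 2 stood above the others for Runx2 (42.1 TPM) and for Runx3 (30.3 TPM). Among old libraries, old WT replicate 1 stood above the others for Runx3 (25.9 TPM), and old KO replicate 1 stood below the others for Cbfb (93.8 TPM). All of these libraries are of batch 1.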

How the results depend on the processing

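Between KO and WT over both ages the count of members called was 2 with DESeq2, 0 with upper-quartile scaling, 2 with no low-count filter, 0 with limma on log2(TPM + 1), 0 with limma on log2(TPM + 0.1), 0 with length correction, 0 with no batch term, 0 with litter as a replicate block, 0 in batch 1 alone, 3 in batch 2 alone and 0 with litter 1 left out (chosen after seeing the data). Leaving out 1 library gave 0 to 1. Between old and young over both genotypes it was 4 with DESeq2, 0 with upper-quartile scaling, 0 with limma at either pseudocount, 0 with length correction, 0 with no batch term, 1 in batch 1 alone, 1 in batch 2 alone and 0 with litter 1 left out. Leaving out 1 library gave 0 to 3. For KO against WT in old mice limma called 1 at either pseudocount, and leaving out 1 library gave 0 to 1, as it did in young mice and for age in WT mice. For age in KO mice DESeq2 called 2, no low-count filter 2, and leaving out 1 library gave 0 to 2. The interaction stayed at 0 members in all 18 alternatives. Where a lone library was left in a group, it was taken to vary like the others. The causes were not tested. The block changed the call of Cbfa2t2 and of no other member between KO and WT. With littermates paired (chosen after seeing the data), the 11 share tests between KO and WT gave adjusted p values of 0.344 to 0.875, and 4 pairs cannot go below an exact p of 0.125.

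Signs turned as follows, and none of the turned values passed. With KO, length correction gave Runx1 0.04, Runx2 0.22, Runx3 0.32, Cbfb 0.20 and Cbfa2t3 0.13. Upper-quartile scaling gave Runx2 0.13, Runx3 0.13 and Cbfb 0.07, and a filter of 1 CPM in 4 libraries gave Runx2 0.05 and Runx3 0.06. Without litter 1, Runx3 was at 0.01 and Cbfb at 0.02. Leaving out 1 library gave -0.21 to 0.01 for Runx2 and -0.20 to 0.03 for Runx3. With age, Runx1 was at 0.24 with upper-quartile scaling, 0.15 with the CPM filter, 0.19 and 0.20 with limma at pseudocounts 1 and 0.1, 0.36 with length correction and 0.02 in batch 1 alone. Leaving out 1 library gave -0.19 to 0.07. Length correction gave Runx3 0.03 and Cbfb 0.08 with age, and Tbl1x, called lower in the count model, 0.04, and limma gave Cbfa2t2 0.03 with age in WT mice at either pseudocount. Upper-quartile scaling moved the median of all genes from 0.10 to 0.32 with KO and from 0.15 to 0.44 with age. Calls were 32.0% higher with KO by TMM and 68.5% by upper quartile, and with age 31.1% and 80.9%. With KO, genes called at large numbered 2548 in the count model, 5288 with DESeq2, 1333 with length correction and 83 to 4930 with 1 library left out. With age they numbered 3563, 6665, 198 and 53 to 5283.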
